A study of Mus musculus with 13 samples.

Results

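Wild-type mouse small intestinal organoids were compared with wild-type small intestinal crypts, the tissue that such cultures are grown from, in libraries that carry no deletion. The comparison took in 20858 of the 23969 genes in the count table of sequencing run 385, those that are neither on the X or Y chromosome nor annotated as a pseudogene. 2 libraries represent each group, of 13 in the series. The crypt libraries are labelled WT, with a C57BL/6-FVB mixed background. They came from mice given beta-naphthoflavone for 6 weeks from 6 weeks of age, so that they were 12 weeks old, and villi had been scraped off before the crypts were released with EDTA. The organoid libraries are labelled WT with an FVB background. They were grown from crypts of AhCre mice and held in beta-naphthoflavone for 10 days before the Matrigel was removed. AhCre places Cre recombinase under a promoter that answers to the aryl hydrocarbon (Ah) receptor, beta-naphthoflavone being a ligand of that receptor, and neither group is labelled with a floxed allele. The name AhCre stands in the organoid labels and not in those of these crypts. Culture, strain label and length of treatment differ together between the groups and cannot be told apart here, nor can a mark A on every organoid library and B on every crypt library of the run, whose meaning is not stated. Single values are set beside them from Eed-/- organoids (AhCre with floxed Eed, C57BL/6-FVB, the same 10 days) and from run 440, whose crypts are WT, Ezh2-/- or Eed-/- with AhCre, the mixed background and 6 weeks of treatment. The libraries also differed in sex pattern, with Xist, which silences an X chromosome in female cells, at 2.48 and 2.58 CPM (counts per 1000000 counts) in crypts and 1265 and 1384 CPM in organoids.

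Crypts are the pockets at the foot of the villi. Stem cells at their base are held in place by Wnt and Notch signals, in part from Paneth cells, which also release antimicrobial peptides, and their dividing daughters become absorptive enterocytes or secretory goblet, enteroendocrine and tuft cells. In the gut the epithelium lies against microbes on its luminal face and against lymphocytes, fibroblasts and vessels on its basal face. An organoid is grown from epithelium alone in a gel, where ligands, growth factors and nutrients come from the medium, and its cells shed into a closed lumen.

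Depth was 12114344 and 11606406 counts in the crypt libraries and 13752066 and 11531873 in the organoid libraries. Levels are CPM of all counts in a library and are given as crypt 1 and 2, then organoid 1 and 2. Fold changes are log2 values of organoids over crypts from edgeR's quasi-likelihood test, with their standard error (SE) and a Benjamini-Hochberg adjusted p, and a gene is called at an adjusted p below 0.05. Across log2 CPM, the correlation over genes was 0.984 between the crypt libraries and 0.990 between the organoid libraries, against 0.846 to 0.869 between a crypt and an organoid library. Of 12318 genes tested, 2385 (19.4%) were higher and 2795 (22.7%) lower in organoids, around a median log2 fold change of -0.02. The counts of each list below stand beside these 2 shares. Large differences were more often falls: 1023 of the lower and 394 of the higher genes differed by more than 4-fold. 194 of the called genes had no count in either organoid library and 26 had none in either crypt library. Such genes were high enough to test through the other group alone, which fixed their direction. Without crypt 2, 1359 genes were higher and 1795 lower, and leaving out any other library gave 1756 to 2083 and 2137 to 2538. Nothing in the labels ties the 2 libraries of a group to different mice or cultures, so the p-values measure only the spread between these libraries. In such bulk RNA, fewer cells of a type and less RNA per cell cannot be told apart.

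**Figure D1:**
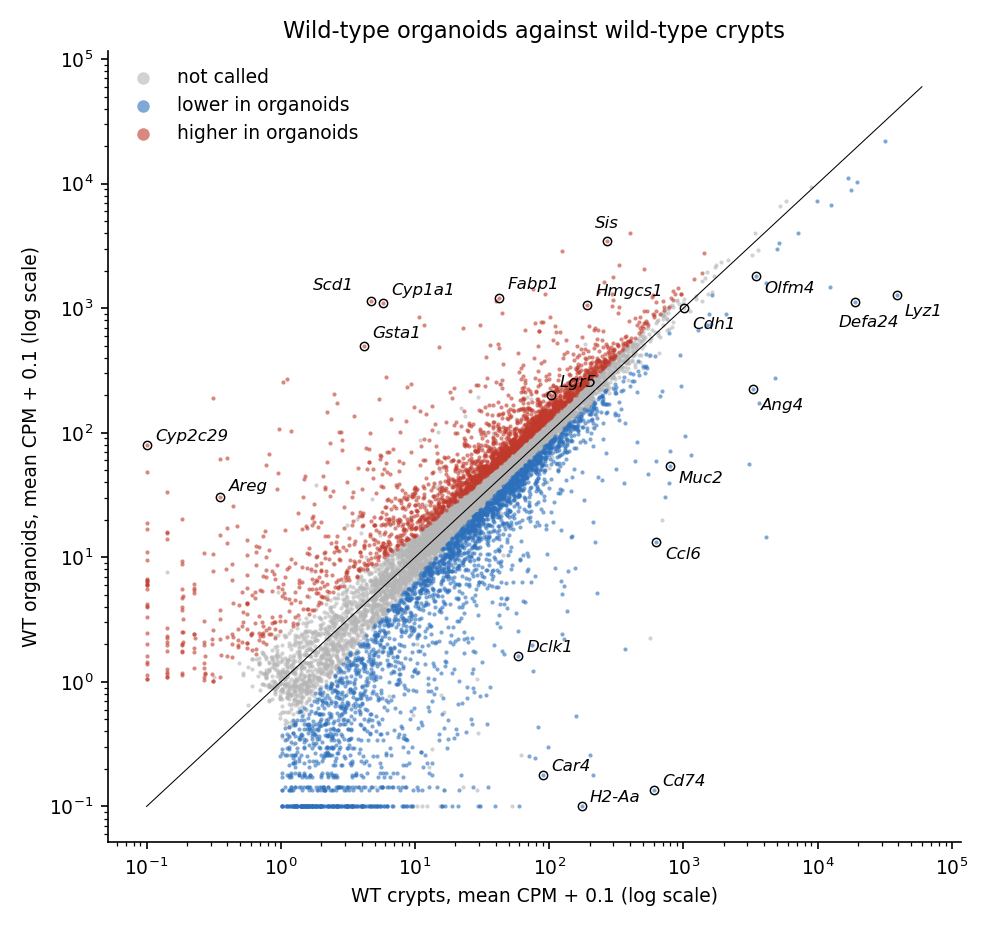
Mean CPM of each tested gene in WT crypts (x axis) and WT organoids (y axis), both on a log scale after adding 0.1, with n = 2 libraries a group. Red genes were higher and blue genes lower in organoids by the edgeR test, grey genes were not called, and the line marks equal levels. Paneth genes such as Lyz1 and Defa24 lie far below the line at the right, class II genes such as Cd74 and H2-Aa lie near the lower edge, and Cyp1a1, Scd1 and Gsta1 lie high above it.

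Several markers of intestinal epithelium stood at similar levels. None of the 6 given first was called, though other genes of the lists that hold them were, Hnf4g below among them. Cdh1, the E-cadherin of epithelial junctions, stood at 997 and 1021 CPM in crypts and 931 and 1087 in organoids, a log2 fold change of -0.06 ± 0.13 (adjusted p = 0.712). The simple-epithelium keratin gene Krt8 (1925 and 1481, then 1889 and 1716) and the microvillus actin-bundling gene Vil1 (615 and 491, then 624 and 625) were not called either. Cdx2, which sets intestinal identity, gave 203 and 172 and 186 and 211 CPM (0.02 ± 0.12, adjusted p = 0.912). Its relative Cdx1 (0.12 ± 0.12) and the enterocyte regulator Hnf4a (0.09 ± 0.14) were not called. When the WT crypt of run 440 replaced these crypts, the log2 fold change of Cdx1 was -0.65. Among 40 transcription factors of intestinal epithelium, 12 were higher (30%) and 9 lower (22.5%), beside 19.4% and 22.7% of all genes tested. The higher ones included factors of fat and drug metabolism. Creb3l3 went from 11.8 and 5.17 to 142 and 108 CPM, Pparg from 7.51 and 7.41 to 57.6 and 61 and Nr1i3, the receptor CAR, from 14.2 and 14 to 143 and 92.4. Creb3l3 was not called without organoid 1 (adjusted p = 0.07). Hnf4g, a relative of Hnf4a, rose from 175 and 148 to 578 and 411 CPM. Klf4, a factor of goblet and surface cells (72.2 and 69.96 to 21.5 and 30.4), Gata5 (60.8 and 55.1 to 33.2 and 27.6) and Ppard (132 and 102 to 42 and 57.1) were lower.

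Immune cell transcripts were nearly absent from organoids, and part of the stromal genes were lower. All 28 tested genes of a 40-gene immune list were lower, with a median log2 fold change of -7.32 (-4.43 when genes with no count are set at their bound), and 25 of the 40 had no count in either organoid library. Of the 28, 15 had no organoid count. They were high enough to test through the crypts alone and could not have come out higher. Ptprc, the CD45 of all leukocytes, gave 21.9 and 19.6 CPM in crypts and no count in organoids, at least 175-fold lower against a floor of 3 counts over the group (adjusted p = 1.43e-06). The T cell genes Cd3e (2.89 and 1.46 CPM in crypts) and Cd8a (2.23 and 2.58), the B cell gene Ms4a1 (5.37 and 6.29), the plasma cell gene Jchain (13.1 and 18.4) and the cytotoxic granule gene Gzma (9.0 and 9.82) also had no organoid count. The list summed to 191 and 197 CPM in crypts and 7.49 and 8.5 in organoids. Fibroblast, muscle and vessel genes summed to 80.2 and 236 CPM in crypts and 12.6 and 22.6 in organoids, and crypt 2 held more of them than crypt 1. The collagen gene Col1a2 gave 3.55 and 13.3 CPM against no organoid count (at least 69.99-fold lower, adjusted p = 0.0284), and Col3a1, at 6.19 and 24.2 CPM against no count, was not called (adjusted p = 0.0879). Col1a2 was not called without organoid 1 (adjusted p = 0.139) or organoid 2 (0.101), and Col3a1 was called without crypt 1 (1.03e-05) or crypt 2 (0.000369). Of 13 such genes tested, 8 were lower, against 15 of 18 without crypt 1 and 5 of 19 without organoid 1. Genes of enteric neurons and glia summed to 6.03 and 7.93 CPM in crypts and 6.69 and 7.63 in organoids. Ret (3.14 and 5.34, then 4.29 and 5.38, adjusted p = 0.8) and Tubb3 (0.991 and 0.517, then 1.24 and 1.21, adjusted p = 0.342) were among the 3 of that list high enough to test. The part that immune and stromal RNA plays in the differences below was not tested.

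Leading stem cell genes were still expressed in culture, while many others of the list fell. Lgr5, the R-spondin receptor that marks crypt base stem cells, stood at 96.3 and 109 CPM in crypts and 138 and 264 in organoids. Both organoid libraries were above both crypt libraries, but the difference was not called (0.89 ± 0.34, adjusted p = 0.117). It was called without organoid 1 (1.28, adjusted p = 5.16e-05) or organoid 2 (0.39, adjusted p = 0.0497). Smoc2 (242 and 263, then 227 and 259) and Ascl2, the stem cell transcription factor (22.2 and 17.1, then 15.3 and 17.3), were not called. Olfm4, a secreted protein of the crypt base under Notch control, fell from 3405 and 3513 to 1927 and 1696 CPM (-0.99 ± 0.14, adjusted p = 0.000475). Of 33 stem cell genes tested, 16 were lower and 2 higher, with a median of -0.38. The higher pair were Aqp4 (96.1 and 127 to 160.4 and 215 CPM) and Bmi1 (32.4 and 33.2 to 59.1 and 48.6), and 4 were higher without organoid 1. Aqp4, a water channel, was not called without crypt 1 (adjusted p = 0.066) or organoid 2 (0.0656). Igfbp4, an inhibitor of insulin-like growth factors, fell from 50.02 and 55.5 to 5.74 and 11.4 CPM. Nrn1, a neuritin, fell from 5.53 and 10.2 CPM to 1 count in both organoid libraries together, a ratio of 197 (95% counting interval 35 to 7830.2). With all 8 libraries of run 385 and additive terms for culture and genotype, Nrn1 (edgeR adjusted p = 0.206) and Olfm4 (0.57) were not called.

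Part of the target and feedback genes of the Wnt pathway were lower. Axin2, which Wnt signalling turns on and which limits it, gave 259 and 245 CPM in crypts and 173 and 188 in organoids (-0.55 ± 0.11, adjusted p = 0.00318). It was not called with the WT crypt of run 440 added (-0.43, adjusted p = 0.131) or in place of these crypts (-0.14, 0.444), nor with all 8 libraries of run 385 in 4 groups (-0.57, 0.0691) or with additive terms for culture and genotype (0.12, 0.773). The inhibitor Nkd1 fell from 13.6 and 15.1 to 2.11 and 1.91 CPM (-2.89 ± 0.26) and the effector Lef1 from 1.4 and 1.81 to 0.364 and 0.173. In the list of Wnt targets 12 of 21 were lower (57.1%), beside 22.7% of all genes tested. Of the others, 8 were not called, and Fzd7, a receptor, was the single higher one (38 and 35.7 to 56.8 and 55.3 CPM). Lef1 was not called without crypt 2 (adjusted p = 0.0593) or organoid 2 (0.0604), nor Fzd7 without crypt 2 (0.0566). Among the ligands, Wnt3, which Paneth cells make, fell from 37.6 and 47.3 to 8.58 and 6.59 CPM (-2.54 ± 0.20, adjusted p = 1.23e-05). Rspo1 gave 1.16 and 3.88 CPM in crypts and no organoid count (at least 21-fold lower, adjusted p = 0.00838), and Wnt5a 2.31 and 2.84 against 1 organoid count, a ratio of 65 (95% counting interval 11.2 to 2609.7). Both are known as stromal genes, and the fibroblast list was lower beside them. The part of stromal RNA in their fall was not tested.

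In the Notch pathway, which keeps progenitors from secretory fate, 12 of 23 genes were lower (52.2%), beside 22.7% of all genes tested. The receptor genes Notch1 (69.7 and 70.7 to 52.9 and 49.4 CPM) and Notch4 (13.4 and 17.9 to 0.582 and 1.56) and the ligand gene Dll4 (25.6 and 30.8 to 13.7 and 9.89) were among the 12. Hes1, the main Notch target in crypts, was not called (56.5 and 52, then 57.4 and 77.5), except without organoid 1 (0.43, adjusted p = 0.0422). The ligand gene Jag2 was the single higher one and rose from 5.45 and 5.26 to 15.3 and 25.8 CPM. Targets of bone morphogenetic proteins (BMP), which act against stem cell fate, were split: Id1 fell from 31.5 and 25.5 to 7.2 and 8.85 CPM, Id3 from 34.3 and 27.9 to 5.24 and 9.54, and Id2 rose from 14.8 and 10.6 to 22.8 and 33.9. The BMP pseudoreceptor gene Bambi fell from 46.6 and 49.8 to 3.49 and 4.16 (-3.72 ± 0.17) and the Wnt antagonist gene Sfrp5 from 32.9 and 20.4 to 0.291 and 0.434 (-6.24 ± 0.38). Ihh, the hedgehog ligand that epithelium sends to stroma, rose from 23.4 and 17 to 49.1 and 57.1 CPM and Tgfbr2 from 40.5 and 38.1 to 95.6 and 103.

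Neither of the best known transcripts of dividing cells was called. Mki67, present in all cycling cells, gave 633 and 697 CPM in crypts and 620.3 and 559 in organoids (-0.23 ± 0.13, adjusted p = 0.173), and Top2a 667 and 629 and 616 and 672 (-0.07 ± 0.12). Of 45 genes, 15 were higher and 2 lower with a median of 0.21, and without crypt 2 the number higher was 7 and the number lower 1. The higher ones included genes of DNA replication. Ccne2, the cyclin of S phase entry, went from 14.9 and 15.2 to 30.8 and 24.4 CPM, Hells from 93.4 and 99.9 to 182 and 162 and Pcna from 114 and 99.9 to 167 and 177. Ccnd1, the cyclin driven by growth signals and Wnt, fell from 308 and 319.7 to 182 and 238 CPM. With the WT crypt of run 440 in place of these crypts, Mki67 (log2 fold change 0.44, adjusted p = 0.0352) and Top2a (0.50, adjusted p = 0.0157) were higher in organoids. Hells stayed called against that crypt (1.36, adjusted p = 0.000108), while Ccne2 (0.29, 0.307) and Pcna (0.03, 0.899) were not, nor were these 2 with that crypt added (0.119 and 0.275).

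Paneth cell transcripts lost most of their share of the counts. The 31 listed genes found in the table took 93932 and 93556 CPM of the crypt libraries and 5748 and 6822 of the organoid libraries. Of 28 tested, 24 were lower, with a median log2 fold change of -3.72. Lyz1 (ENSMUSG00000069515, chromosome 10, 117287796 to 117292868, GRCm38), the lysozyme of Paneth granules, fell from 37750.2 and 39859 to 1125 and 1416 CPM (-5.00 ± 0.19, adjusted p = 1.57e-07). The alpha-defensin gene Defa24 fell from 19630.3 and 18428 to 1067 and 1193 (-4.14 ± 0.17), Defa22 from 344 and 397 to 1.82 and 1.65 (-7.79 ± 0.18) and the defensin-like AY761184 from 4693 and 3607 to 12.7 and 16 (-8.24 ± 0.23). Defensin genes are near copies of each other and their counts are uncertain one by one. Genes outside that family fell too: the angiogenin Ang4 from 3339 and 3240.4 to 172 and 277 CPM, the lectin Itln1 from 12927 and 11925 to 1337 and 1646, and Mmp7, the protease that activates defensins, from 864 and 1189 to 90.02 and 99.7 (-3.50 ± 0.18). Nupr1 and Clps, given below under stress and lipid absorption, belong to the Paneth list too and fell. Paneth transcripts stayed detectable in both organoid libraries. The 2 genes that rose were Pla2g2a, a bactericidal phospholipase (191 and 237 to 567 and 774 CPM), and Mptx1, a mucosal pentraxin (18.1 and 8.53 to 194 and 135, adjusted p = 0.0128), whose call was lost without organoid 1 (0.0804). Pla2g2a stood at 12729 CPM in the WT crypt of run 440 and was lower in organoids against it (log2 fold change -4.29).

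Goblet cell genes fell together. 29 of 31 were lower, with a median of -1.71. Muc2, which forms the mucus layer, fell from 826 and 778 to 40.5 and 67.1 CPM (-3.97 ± 0.24, adjusted p = 3.86e-05), and Clca1, a protease of mucus, from 1449 and 821 to 45.4 and 85.9 (-4.18 ± 0.53). Fcgbp, a Muc2 partner, fell from 4705 and 3530.4 to 1273 and 1897 and the trefoil peptide gene Tff3 from 568 and 474 to 282 and 318 (-0.86 ± 0.13). The chemokine gene Ccl6 showed one of the larger falls, from 638 and 624 to 14 and 12.3 CPM (-5.64 ± 0.15, adjusted p = 1.89e-08). The sialyltransferase gene St3gal6 was higher (54.5 and 46.6 to 95.1 and 82.9), as was Retnlb, an antibacterial protein, which rose from 0.413 and 1.03 to 72.9 and 61 CPM. Retnlb stood at 0 and 0.171 CPM in Eed-/- (knockout, KO) organoids and 1346 in the WT crypt of run 440, and was lower in organoids against that crypt (log2 fold change -4.37).

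Enteroendocrine genes were lower in part and tuft cell genes strongly. Chga, the chromogranin of hormone granules, fell from 137 and 113 to 36.8 and 33 CPM (-1.90 ± 0.14, adjusted p = 7.14e-06), while Chgb was not called (468 and 409, then 318 and 398, adjusted p = 0.0578). Sst, the somatostatin of D cells, fell from 23.2 and 15.6 to 0.945 and 1.39 (-4.12 ± 0.32) and Gcg, the glucagon-like peptide precursor of L cells, from 56.9 and 82.2 to 6.69 and 13.8 (-2.85 ± 0.39). Gip, of K cells, fell from 87.6 and 70.7 to 37 and 30.7. With all 8 libraries of run 385 and additive terms for culture and genotype, Chga, Sst, Gcg and Gip were not called (edgeR adjusted p = 0.277, 0.615, 0.394 and 0.591). Neurog3, the factor that starts the lineage, was higher (12.4 and 9.99 to 19.6 and 17.8 CPM, 0.68 ± 0.19), though not without crypt 2 (adjusted p = 0.138) or organoid 1 (0.0891). Neurod1, which acts after it, gave 7.92 and 8.36 and then 7.34 and 5.2 CPM (adjusted p = 0.228). Of 38 genes tested, 22 were lower, against 13 without crypt 2. In the tuft cell list, 20 of 24 were lower with a median of -4.42. Dclk1 fell from 71 and 46 to 0.509 and 2.51 CPM (-5.40 ± 0.63, adjusted p = 0.00624), the taste channel gene Trpm5 from 50.4 and 41.8 to 0.873 and 2.25 (-4.98 ± 0.32) and Pou2f3, which specifies the lineage, from 14.9 and 11.3 to 1.89 and 2.77 (-2.56 ± 0.29). The tuft list summed to 508 and 393 CPM in these crypts, 108 and 126 in WT organoids and 162 in the WT crypt of run 440, where Dclk1 stood at 4.81 and Trpm5 at 8.25. That crypt lay nearer the organoids than the crypts of run 385 did. With it in place of these crypts, Dclk1 (-1.75, adjusted p = 0.103) and Pou2f3 (-0.25, 0.691) were not called, nor with it added (0.086 and 0.0852), while Trpm5 stayed called (0.00277 and 0.0331).

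**Figure D2:**
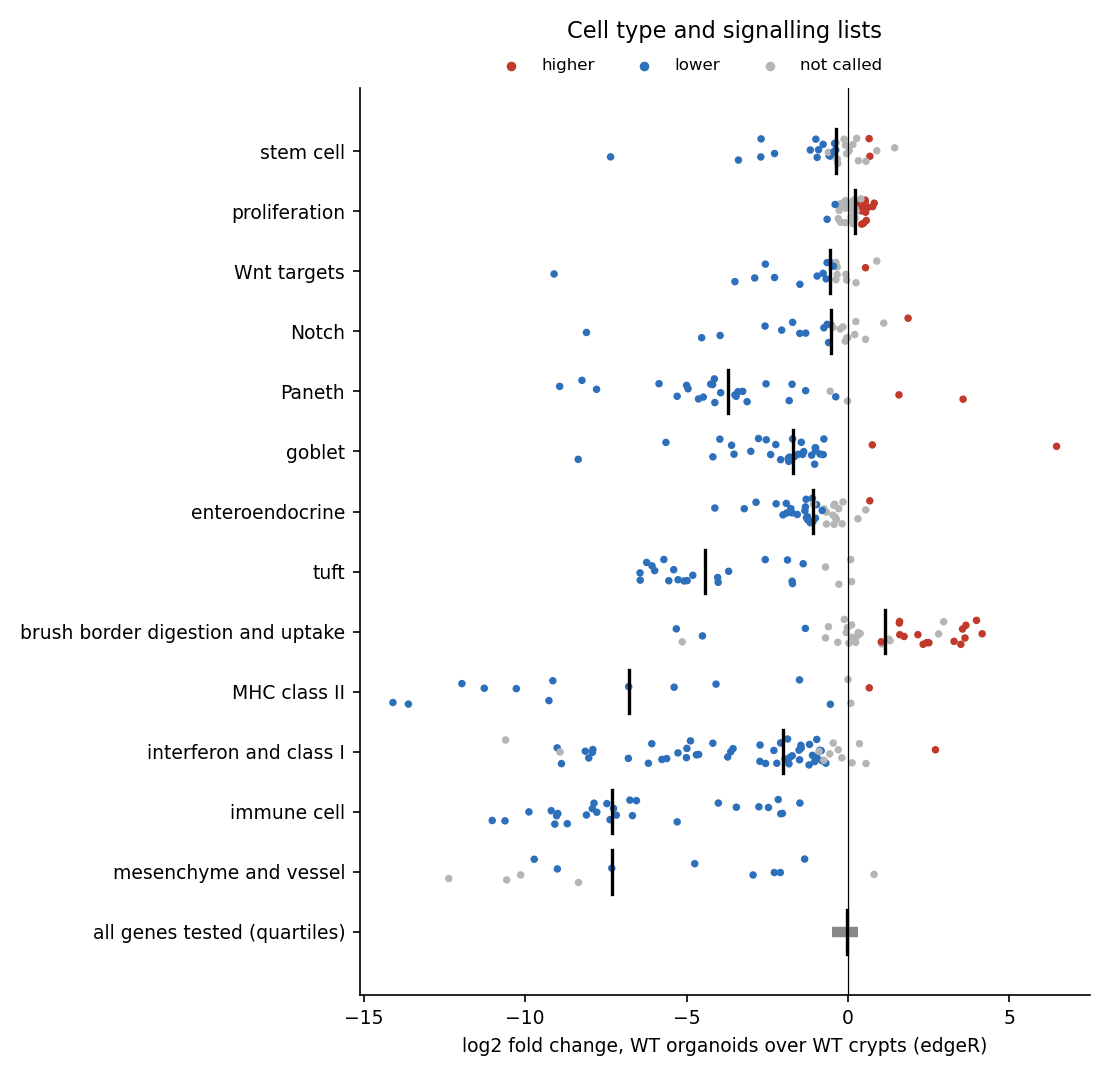
Log2 fold change of organoids over crypts (x axis) for each tested gene of 13 lists, with 1 point a gene coloured by its call and a bar at the median. The bottom row gives the median and quartiles of all genes tested, and genes with no count in 1 group sit at a fitted value that depends on the prior count. Paneth, goblet, tuft, class II, interferon and immune genes lie mostly left of 0. Stem cell genes lie on both sides of 0 with their median to its left. Dividing cell genes lie around 0, and genes of the brush border lie mostly to its right.

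Class II antigen presentation was all but lost. Ciita (ENSMUSG00000022504, chromosome 16, 10488178 to 10527564), the master regulator of these genes, gave 31 and 48.4 CPM in crypts and no count in either organoid library, at least 333-fold lower (adjusted p = 6.57e-05). H2-Aa gave 120.0 and 229 CPM against none (at least 1462-fold lower, adjusted p = 0.028, but 0.105 without organoid 1 and 0.0754 without organoid 2). Cd74, the invariant chain, fell from 441 and 762 CPM to a single count, a ratio of 15123 (95% counting interval 2714 to 597368). H2-Ab1 fell from 149 and 273 CPM to 2 counts, a ratio of 2656 (95% counting interval 735 to 21935), and was not called without organoid 1 (adjusted p = 0.071). Crypt 2 had the higher level of each of these 4. Of the 15 genes tested, 4 had no organoid count. They were high enough to test through the crypts alone and could not have come out higher. In all 12 of 15 genes were lower, and Ifi30, a lysosomal thiol reductase, was higher (132 and 125 to 193 and 232). Immune cells express the same genes, and their part in the fall was not tested. In crypts, Cd74 gave 441 and 762 CPM beside 21.9 and 19.6 of Ptprc and 5.37 and 6.29 of Ms4a1.

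Genes of the interferon response and of class I presentation were lower in 46 of 58 cases, with a median of -2.02. Of the 58, 7 had no organoid count. They were high enough to test through the crypts alone and could not have come out higher. Irf1, which interferon gamma induces, fell from 167 and 196 to 32.8 and 24.5 CPM (-2.72 ± 0.17, adjusted p = 1.11e-05). B2m, the light chain of class I molecules, fell less, from 361 and 438 to 247 and 229 (-0.81 ± 0.13). Nlrc5, the class I counterpart of Ciita, fell from 7.76 and 17.3 CPM to 1 count, a ratio of 314 (95% counting interval 56 to 12461). The guanylate-binding protein genes Gbp3 (3.71 and 6.55 CPM) and Gbp9 (2.48 and 6.89) had no organoid count. Both chains of the interferon gamma receptor rose: Ifngr1 went from 103 and 119 to 212 and 219 CPM and Ifngr2 from 96.4 and 88.7 to 139 and 141. In Eed KO organoids the 2 libraries were unlike, with Irf7 at 21.7 and 159 CPM against 3.42 and 5.81 in WT organoids and 20.2 and 20.1 in WT crypts. The list summed to 3117 and 3810 CPM in WT crypts, 1874 and 1748 in WT organoids and 2166 and 4477 in Eed KO organoids. The single higher gene was H2-Q1 (3.88 and 2.76 to 23.3 and 22.3), one of a family of near copies that differ between mouse strains, and 3 were higher without organoid 2.

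Many promoters of these genes share letters that interferon-activated factors are known to bind. RefSeq's table for GRCm38.p6 gives a promoter, from 250 bases before to 50 bases after the start, for 41 of the 58 interferon and class I genes tested. The letters GAAA, any 2 bases and again GAAA, searched on both strands and with overlapping matches counted, were found in 22 of the 41 (53.7%), and in 19 of the 34 that fell. They were found in 3.67% of the 9613 tested genes with a promoter and in 3.44% of all 32851 promoters. The windows shown here, with the match in capitals and 20 bases on each side, are from genes that fell, Igtp, Irgm2, Isg15 and Socs1 being chosen for their matches after their values were seen. They show how the match stands alone in B2m, is shared by the neighbouring GTPase genes Igtp and Irgm2, and is overlapped in Isg15 and Socs1. They lie upstream of the start, at chr2:122147528-122147577 (+) for B2m, chr11:58199502-58199551 (+) for Igtp, chr11:58214893-58214942 (+) for Irgm2, chr4:156200855-156200916 (-) for Isg15 and chr16:10785584-10785639 (-) for Socs1.
B2m: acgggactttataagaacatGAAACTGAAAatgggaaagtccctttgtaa
Igtp: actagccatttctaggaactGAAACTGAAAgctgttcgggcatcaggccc
Irgm2: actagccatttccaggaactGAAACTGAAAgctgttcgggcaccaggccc
Isg15: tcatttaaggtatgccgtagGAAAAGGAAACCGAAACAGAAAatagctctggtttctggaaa
Socs1: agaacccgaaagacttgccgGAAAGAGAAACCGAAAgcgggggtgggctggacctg
Igtp fell from 20.1 and 28.8 to 0.654 and 0.954 CPM (-4.99 ± 0.31, adjusted p = 2.49e-06), Irgm2 from 22.9 and 37.9 to 0.291 and 1.04 (-5.62 ± 0.49) and Isg15, a ubiquitin-like protein, from 2.15 and 1.81 to 0.291 and 0 (-3.63 ± 0.74). Socs1, which damps the response, fell from 2.39 and 2.84 to 0.291 and 0.0867 (-3.73 ± 0.58). Eed KO organoids held Igtp at 5.16 and 24.1 CPM and Irgm2 at 6.88 and 22.8, so cultured libraries differed in both. With all 8 libraries of run 385 and additive terms for culture and genotype, Igtp (edgeR adjusted p = 0.145) and Irgm2 (0.0694) were not called. In that fit the log2 fold change of Isg15 was 0.13 (adjusted p = 0.949). A match describes the letters and is not evidence of a bound factor in these cells.

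Of 36 tested epithelial genes that answer to gut microbes, 9 were higher (25%) and 15 lower (41.7%), beside 19.4% and 22.7% of all genes tested. The share higher was near that of all genes. Duox2, an oxidase that makes hydrogen peroxide at the surface, fell from 138 and 172 to 6.98 and 9.19 CPM (-4.33 ± 0.17, adjusted p = 2.52e-07). Nos2 fell from 29.6 and 33.2 to 1.31 and 1.39 (-4.59 ± 0.22). With all 8 libraries of run 385 and additive terms for culture and genotype, Nos2 was not called (edgeR adjusted p = 0.747). Fut2, which adds fucose to surface glycans, fell from 11.1 and 28.7 to 2.76 and 1.3. Fut2 was not called without organoid 1 (adjusted p = 0.173) or organoid 2 (0.181). The gasdermin genes Gsdmc2 (80.6 and 61 to 0.218 and 0.0867 CPM, -8.78 ± 0.32) and Gsdmc4 (109 and 57.3 to 0.582 and 0.0867, -7.89 ± 0.72) were close to 0 in organoids, and Gsdmc4 was not called without organoid 1 (adjusted p = 0.0778) or organoid 2 (0.057). The antimicrobial lectins Reg3g (388 and 924, then 472 and 402) and Reg3b (285 and 709, then 535 and 129) overlapped between groups and were not called. Without crypt 1, Reg3g was lower (-1.14, adjusted p = 0.000606). Reg3a rose from 7.92 and 5.08 to 159.8 and 98.2 (4.25 ± 0.39) and Reg1 from 10.7 and 12.3 to 828 and 628 (5.92 ± 0.20).

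Most tested genes of lipid absorption were higher, and part of those of the brush border. Sis, the sucrase-isomaltase of the brush border, rose from 358 and 183 to 4330.3 and 2615 CPM (3.63 ± 0.54, adjusted p = 0.0152), Alpi, the intestinal alkaline phosphatase, from 42.8 and 24.2 to 469 and 350.0 (3.55 ± 0.36) and Treh, the trehalase, from 9.0 and 6.38 to 122 and 80.2 (3.66 ± 0.30). The lactase gene Lct was not called (44.2 and 17.1, then 24.9 and 14.2). Of 38 brush border genes, 16 were higher, 3 lower and 19 not called. The lower ones were the peptidase genes Dpp4 (136 and 133 to 2.11 and 5.12 CPM, -5.32 ± 0.31) and Naaladl1 (149 and 107 to 6.47 and 5.2, -4.51 ± 0.22) and the nucleoside carrier Slc28a2 (6.11 and 7.24 to 1.6 and 4.08). Slc28a2 was not called without either crypt (adjusted p = 0.0682 and 0.145) or without organoid 1 (0.122). Eed KO organoids held Dpp4 at 169 and 178 CPM and Naaladl1 at 56 and 54.2. Among lipid absorption genes, 19 of 30 were higher. Fabp1, which binds fatty acids in the cytosol, rose from 64.8 and 19.99 to 1322 and 1107 CPM (4.78 ± 0.80, adjusted p = 0.0346), Apoa4 from 79.2 and 108 to 1277 and 1342 (3.75 ± 0.17), Apob, the core protein of chylomicrons, from 323 and 276 to 2158 and 1396 (2.51 ± 0.24) and the fatty acid carrier Cd36 from 4.21 and 4.74 to 63.3 and 54 (3.65 ± 0.18). The pancreatic-type lipase gene Pnliprp2 (823 and 773 to 48.8 and 94.3), its cofactor Clps (405 and 321 to 32.1 and 47.4) and the cholesterol exporter Abca1 (11.8 and 7.5 to 2.76 and 2.17) fell. Crypt 1 held more of Sis and Fabp1 than crypt 2, and both organoid libraries were far above either, but Fabp1 was not called without organoid 1 (adjusted p = 0.231) or organoid 2 (0.179).

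Genes that mark position along the gut were looked at in lists for duodenum and jejunum, for ileum, and for colon and stomach. Of 17 genes of duodenum and jejunum, 12 were higher (70.6%) and 2 lower (11.8%), the hormone genes Gip and Cck (15.8 and 15.9 to 5.53 and 10.1 CPM, not called without crypt 2, adjusted p = 0.0564). Of 19 genes of ileum, 3 were higher (15.8%) and 6 lower (31.6%), beside 19.4% and 22.7% of all genes tested. The ileum shares are near those of all genes, and the lists were not tested against each other. Gata4, which is kept out of the ileum, rose from 124 and 93.3 to 205 and 196 CPM (0.82 ± 0.14) and Onecut2 from 71.8 and 64.6 to 171 and 145 (1.15 ± 0.13). Slc40a1, the iron exporter of the duodenum, rose from 2.64 and 1.55 to 47.3 and 69.7 (4.72 ± 0.29). Fabp6, the bile acid binder of the ileum, gave 52.4 and 5.08 CPM in the 2 crypt libraries against 1 organoid count and was not called (adjusted p = 0.129, but 0.000351 without crypt 1 and 1.38e-06 without crypt 2). Mptx2, which is in the Paneth list too, fell from 2877 and 4498 to 155 and 190.3 CPM (-4.48 ± 0.25). Mptx1, also in both the ileum and the Paneth list, rose, as given above with its limit. Of 10 tested genes of colon and stomach, 5 were higher (50%) and 3 lower (30%). Car4, a carbonic anhydrase of that list, fell from 99.1 and 81.7 CPM to 2 counts, a ratio of 1145 (95% counting interval 317 to 9463). The water channel gene Aqp8, also of that list, rose from no crypt count to 19.2 and 18.6 CPM, at least 149-fold. The labels do not say which stretch of the small intestine the crypts or the cultures came from.

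**Figure D3:**
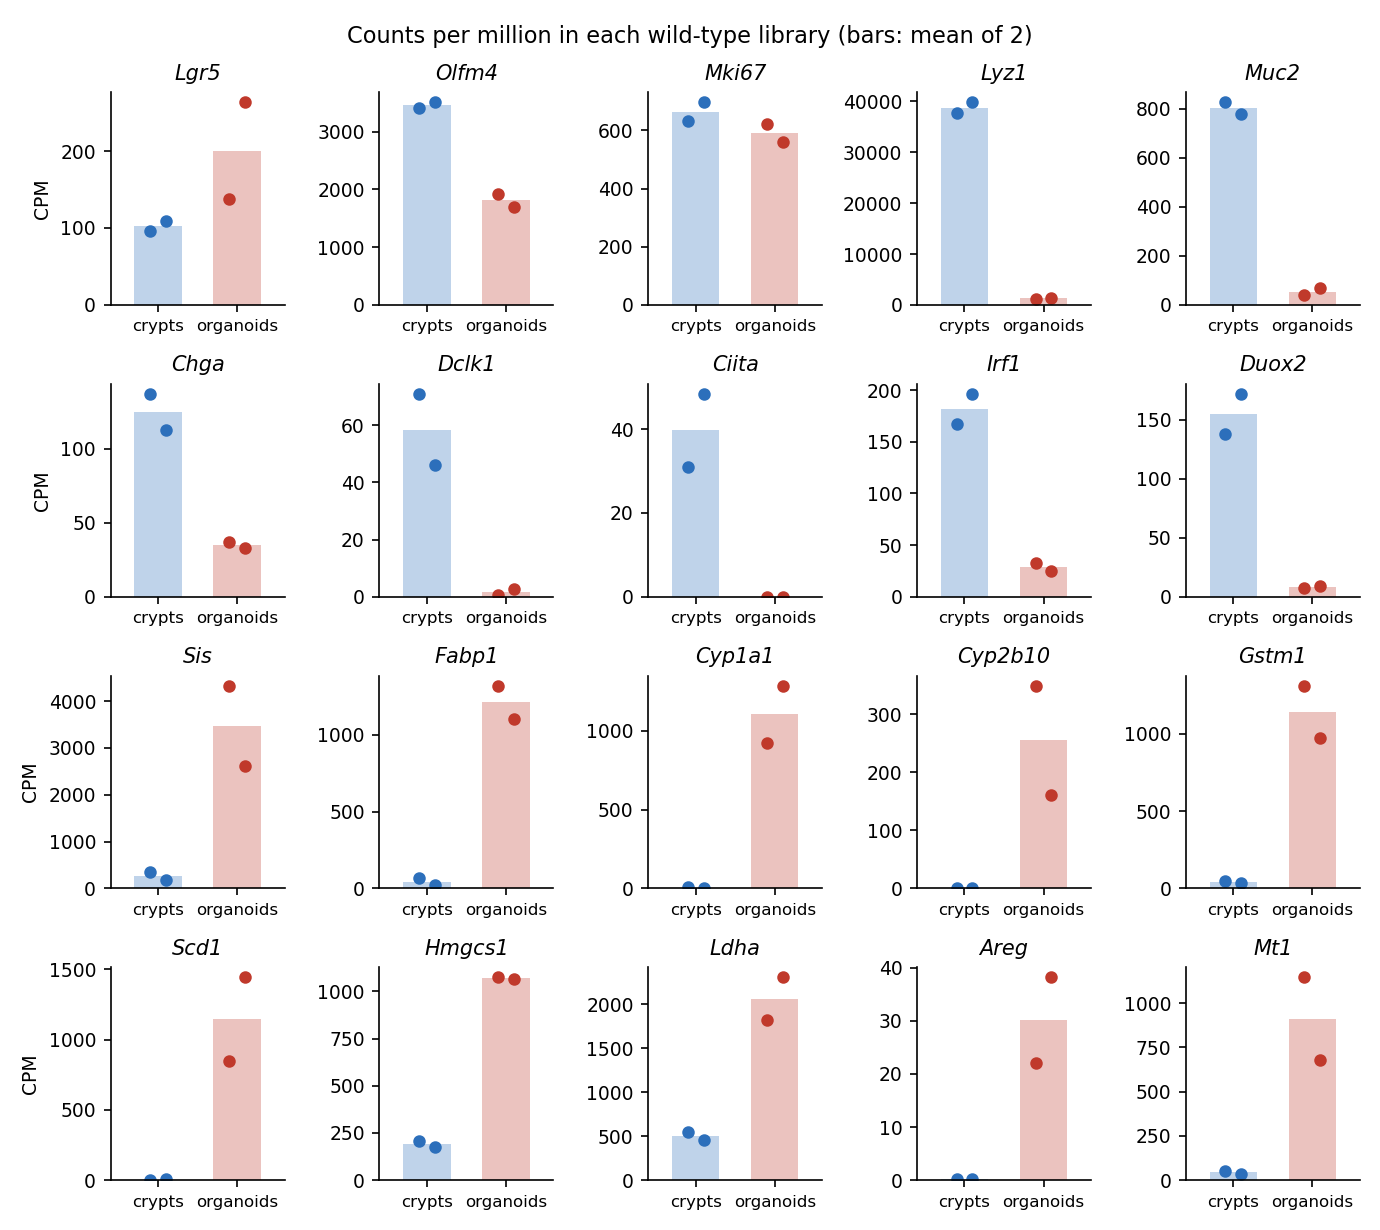
CPM (y axis, from 0) of 20 genes in each WT crypt library (blue) and WT organoid library (red), with bars at the mean of 2 libraries. Paneth, goblet, tuft, class II and Duox2 transcripts are low in organoids, Mki67 differs little, Lgr5 spreads between the 2 organoid libraries, and enterocyte and metabolic genes are high in both organoid libraries.

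Drug-metabolizing genes rose as a group. 41 of 45 genes were higher, with a median log2 fold change of 2.44. Cyp2b10, the classic target of CAR, rose from 0.743 and 1.12 to 349.6 and 161 CPM (8.04 ± 0.83, adjusted p = 0.0107), Cyp3a11, a target of the related receptor PXR, from 2.06 and 2.76 to 258 and 155 (6.36 ± 0.42) and Cyp2c66 from 1.07 and 0.948 to 309 and 229.8 (7.99 ± 0.26). Cyp2c29 had no count in either crypt library and 101 and 58.5 CPM in organoids, at least 646-fold higher (adjusted p = 0.00586). Abcb1a, the drug efflux pump, rose from 88 and 76.6 to 353 and 274 (1.87 ± 0.16). Cyp27a1, a sterol hydroxylase (11.2 and 14.3 to 1.96 and 3.47), was lower, and the carboxylesterase gene Ces1d fell from 16.7 and 16.3 CPM to 1 count, a ratio of 417 (95% counting interval 74.4 to 16503). Ces1d did not follow culture over the series: it had no count in the WT crypt of run 440 and stood at 26.9 and 36 CPM in Eed KO organoids. It was not called with that crypt added (adjusted p = 0.133) or with all 8 libraries of run 385 and additive terms (0.0653). The P450 genes of the 2b, 2c and 3a families are close copies, and their counts can be split between members.

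Targets of the Ah receptor, whose ligand was given to both groups, were higher in 10 of 15 cases. Cyp1a1 (ENSMUSG00000032315, chromosome 9, 57697613 to 57703822), its classic target, rose from 9.99 and 1.38 to 923 and 1285 CPM (7.52 ± 1.06, adjusted p = 0.0276). Cyp1b1 rose from 1.32 and 9.22 to 152 and 223 (5.09 ± 0.95, adjusted p = 0.0477). The crypt libraries were far apart in both genes, with crypt 1 the higher in Cyp1a1 and crypt 2 in Cyp1b1. Neither was called without organoid 1 (adjusted p = 0.182 and 0.236) or organoid 2 (0.161 and 0.235). Ahrr, the repressor that the receptor induces, rose from 1.73 and 0.775 to 17.4 and 27.5 (4.07 ± 0.38, adjusted p = 0.000106), and Tiparp from 24.9 and 27.2 to 75.2 and 108 (1.75 ± 0.17). No source used here gives the time between the last dose and the harvest. TNGCGTG, the core that the receptor is known to bind, lay in 1 of the 12 promoters of these genes given by RefSeq (8.33%) and in 9.42% of tested genes.

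Glutathione transferases and other oxidative stress genes under Nrf2 were higher in 38 of 47 cases. Gsta1 rose from 5.94 and 2.15 to 585 and 408 CPM (6.87 ± 0.55, adjusted p = 0.00302), Gsta4 from 6.44 and 5.43 to 310.4 and 249 (5.50 ± 0.18) and Gstm1 from 45.2 and 35.3 to 1311 and 971 (4.77 ± 0.22). Nqo1, which the Ah receptor can drive too, rose from 34.6 and 24.7 to 171 and 131 (2.29 ± 0.21) and Gclc, the first enzyme of glutathione synthesis, from 67.5 and 59.2 to 373 and 202 (2.13 ± 0.38). Gpx3 (3.3 and 9.82 to 0.873 and 0.347), Akr1b10 (14.6 and 17.1 to 4.0 and 3.82) and Blvrb (28.1 and 24.7 to 15.3 and 18.2) fell. Gclc was not called without crypt 1 (adjusted p = 0.109) or crypt 2 (0.125), Gpx3 without organoid 2 (0.0737) or Blvrb without crypt 1 (0.0525), and 5 genes were lower without organoid 1. The letters TGACNNNGC, to which Nrf2 is known to bind, lay in 10 of 42 RefSeq promoters of the list (23.8%) and in 16.9% of tested genes. All 10 were of genes that rose, but so were 34 of the 42.

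Sterol synthesis rose as a whole pathway. 25 of 27 genes under the factor Srebf2 were higher, with a median of 1.98. Hmgcs1, at the entry of the pathway, rose from 207 and 178 to 1075 and 1066 CPM (2.41 ± 0.13, adjusted p = 1.15e-06), Lss from 46.3 and 43.4 to 342 and 367 (2.92 ± 0.12) and Cyp51 from 80.9 and 87.3 to 620.3 and 698 (2.91 ± 0.13). Npc1, which moves cholesterol out of lysosomes, was the single lower gene (20.3 and 27.6 to 12.7 and 17.9, -0.72 ± 0.21, adjusted p = 0.0237), and was not called without crypt 2 (0.198) or organoid 1 (0.12).

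The sterol genes and the class II genes, which moved in opposite directions, share the short box ATTGG, known as the site of the factor NF-Y. It lay in 16 of the 18 sterol genes with a RefSeq promoter, 15 of them higher, and in 9 of 11 class II genes, 8 of them lower. With or without the box, 17 of the 18 were higher and 9 of the 11 lower. With 42.9% of tested genes and 37.4% of all promoters holding these 5 letters on either strand, the match is a common one. TCACNCCAC, which spells the sterol element of the Srebf factors, lay in 1 of the 18 and in 1.45% of tested genes. The windows set out the box in a class II gene and in sterol genes, and the sterol element of Hmgcs1. They lie at chr17:34287847-34287891 (-) for H2-Aa, chr10:76531523-76531567 (+) for Lss, chr5:4104702-4104746 (-) for Cyp51, where the box is on the opposite strand, and chr13:119690194-119690242 (+) for Hmgcs1.
H2-Aa: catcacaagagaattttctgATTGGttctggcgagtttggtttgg
Lss: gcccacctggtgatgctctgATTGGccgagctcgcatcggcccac
Cyp51: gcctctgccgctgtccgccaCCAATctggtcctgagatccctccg
Hmgcs1: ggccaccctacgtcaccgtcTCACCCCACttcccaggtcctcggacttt
The box stands in promoters of genes that rose and of genes that fell.

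Fatty acid synthesis followed, with 19 of 22 genes higher and none lower, or 1 lower without crypt 1. Scd1, which adds the first double bond, rose from 4.46 and 4.82 to 847 and 1443 CPM (7.88 ± 0.34, adjusted p = 1.81e-05) and its relative Scd2 from 109 and 138 to 2484 and 3282 (4.48 ± 0.19). The increase was smaller for the synthase Fasn (254 and 205 to 571 and 764, 1.47 ± 0.16), the carboxylase Acaca (105 and 87.3 to 187 and 229, 1.05 ± 0.13) and the regulator Srebf1 (82.9 and 87.4 to 184 and 167, 0.98 ± 0.11). Genes of fatty acid oxidation were higher in 14 (35.9%) and lower in 4 (10.3%) of 39 cases, beside 19.4% and 22.7% of all genes tested. Cpt1a, which admits fatty acids to mitochondria, fell from 360.4 and 293 to 133 and 142 (-1.31 ± 0.13).

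Glycolytic and hypoxia genes were higher in 27 of 36 cases, with a median of 1.62. Pkm, the last step of glycolysis, rose from 373 and 292 to 1839 and 2627 CPM (2.68 ± 0.20, adjusted p = 2.6e-05) and Ldha, which makes lactate, from 552 and 459 to 1818 and 2308 (1.96 ± 0.16). Egln3, an oxygen sensor that hypoxia induces, rose from 3.55 and 1.46 to 102 and 245 (6.02 ± 0.83, adjusted p = 0.0225) and the lactate exporter Slc16a3 from 2.81 and 2.76 to 45 and 129 (4.88 ± 0.83, adjusted p = 0.033). Organoid 2 was the higher library of these last 2, by more than 2-fold. Egln3 was not called without crypt 2 (adjusted p = 0.0562), nor Slc16a3 without crypt 1 (0.0943) or crypt 2 (0.094). Hk2, the hexokinase of growing cells, was not called (111 and 99.9, then 44 and 82.6), but was lower without organoid 1 (-0.44, adjusted p = 0.0369) or organoid 2 (-1.29, adjusted p = 0.000123).

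Nuclear genes of the respiratory chain were near level, with 11 of 71 higher, none lower and a median of 0.16. That number was 1 without crypt 2 or without organoid 1. With upper-quartile scaling it was 5, beside 2 lower, and with no composition scaling 21. Genes of the mitochondrial genome took 12.4% and 14.5% of crypt counts and 9.17% and 8.19% of organoid counts. 11 of 18 were lower, such as mt-Cytb (16620.3 and 18980.3 to 9853 and 7840.4, -1.07 ± 0.18), against 6 without organoid 2. The ribosomal RNA mt-Rnr2 was higher (949.8 and 864 to 1586 and 1305, 0.61 ± 0.15), though not without crypt 2 (adjusted p = 0.052) or organoid 1 (0.0973), and mt-Nd1 was not called (8937 and 9082, then 10176 and 8560.1).

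**Figure D4:**
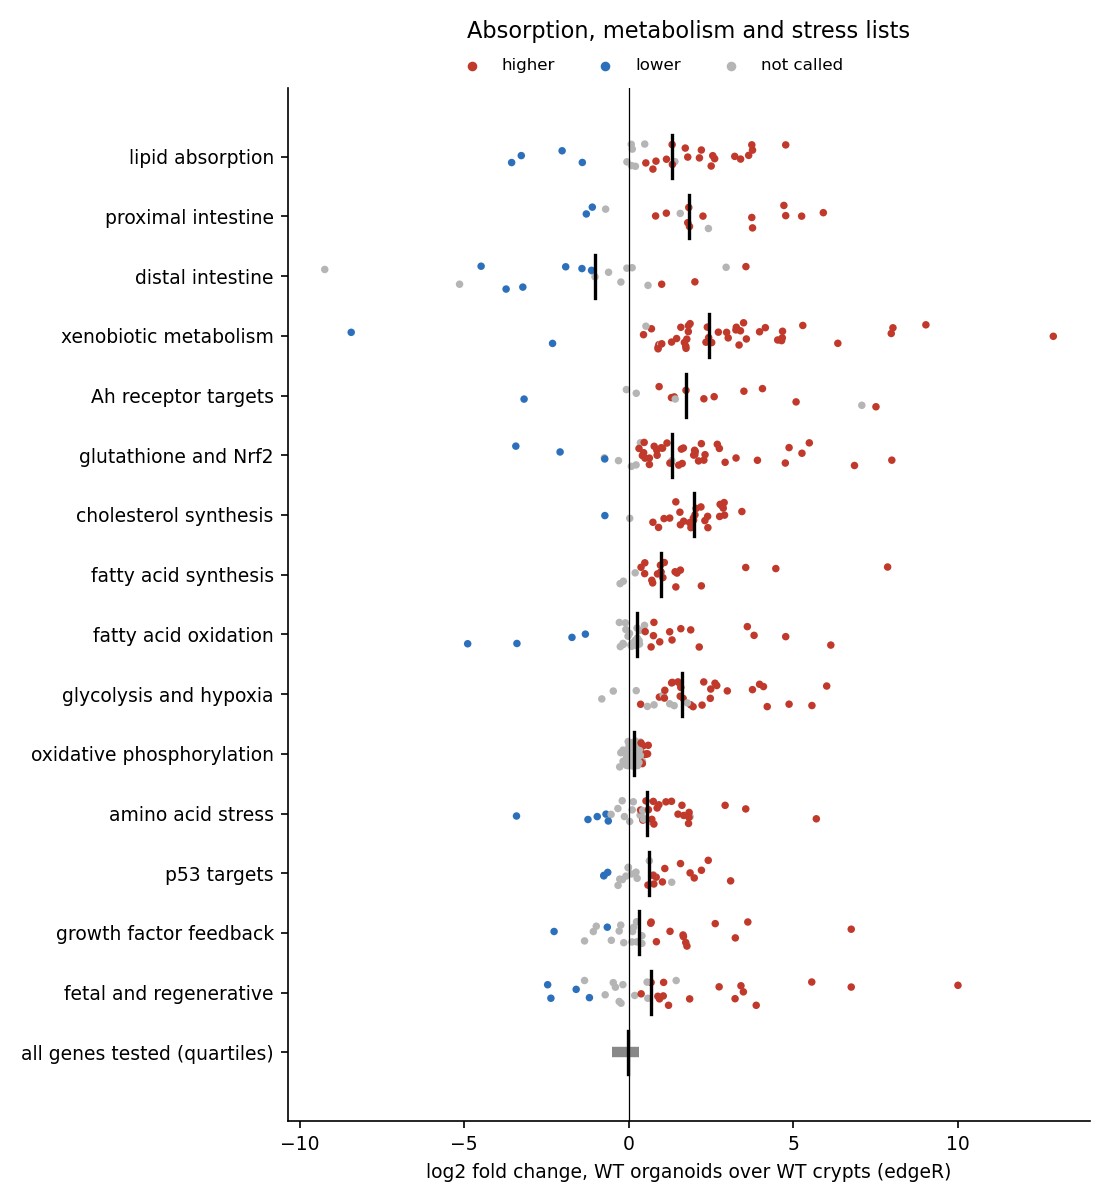
Log2 fold change of organoids over crypts (x axis) for each tested gene of 15 lists, with 1 point a gene coloured by its call and a bar at the median. The bottom row gives the median and quartiles of all genes tested, and genes with no count in 1 group sit at a fitted value that depends on the prior count. Genes of drug metabolism, glutathione, sterol and fatty acid synthesis and glycolysis lie mostly to the right of 0, and those of the respiratory chain lie close to it.

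Stress lists differed in how many genes were higher: 52.6% of the amino acid response, 44.4% of p53 targets and 12.5% of the unfolded protein response. Lower were 13.2%, 11.1% and 31.2% in the same order. Among all genes tested, 19.4% were higher and 22.7% lower. Among genes of the amino acid response under Atf4, 20 of 38 were higher and 5 lower. Trib3 rose from 1.24 and 1.64 to 16.9 and 18.8 CPM (3.56 ± 0.27, adjusted p = 8.19e-06), Atf5 from 14 and 17 to 53.9 and 62 (1.84 ± 0.15) and the cystine carrier Slc7a11 from 2.72 and 9.39 to 42.5 and 54.3 (2.94 ± 0.62). Slc7a11 was not called without organoid 1 (adjusted p = 0.256) or organoid 2 (0.225). Asns, the asparagine synthetase, was not called (130.2 and 154, then 167 and 213) except without organoid 1 (0.50, adjusted p = 0.0295), and the stress protein gene Nupr1 fell from 125 and 172 to 13.7 and 15.6 (-3.40 ± 0.18). In the unfolded protein response 10 of 32 genes were lower and 4 higher, or 1 higher without crypt 2 and none without any other library. The goblet and Paneth cell sensor Ern2 fell from 61.8 and 76.9 to 18.5 and 23 (-1.81 ± 0.16), its widely expressed relative Ern1 from 95.2 and 129 to 57.5 and 56.5 (-1.04 ± 0.15), and the chaperone Hspa5 was not called (657 and 707, then 916 and 884). Among p53 targets 12 of 27 were higher. Cdkn1a, the cell cycle inhibitor p21, rose from 36.1 and 32.1 to 117 and 168 CPM (2.00 ± 0.17, adjusted p = 5.08e-05), Plk2 from 4.54 and 3.45 to 21.7 and 23.2 (2.42 ± 0.22) and Gdf15 from 0.991 and 0.603 to 6.33 and 8.24 (3.10 ± 0.39). Mdm2, the p53 antagonist that p53 induces, was not called (39.7 and 55, then 65.1 and 50.3).

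Growth factor feedback and repair genes rose in part. Areg, the amphiregulin ligand of the EGF receptor, rose from 0.248 and 0.258 to 22.1 and 38.2 CPM (6.77 ± 0.42, adjusted p = 6.95e-06), while Egf itself fell from 8.09 and 5.51 to 1.24 and 1.73 (-2.26 ± 0.37) and Egfr was not called (64.2 and 67.5, then 51.3 and 65.8). The MAP kinase phosphatases Dusp5 (6.93 and 4.39 to 39 and 34.7, 2.64 ± 0.22) and Dusp4 (4.87 and 1.21 to 30.7 and 48.9, 3.63 ± 0.67) and the factor Etv4 (4.62 and 2.07 to 27.3 and 39.7, 3.25 ± 0.37), all induced by that pathway, were higher. Dusp4 was not called without organoid 1 (adjusted p = 0.163) or organoid 2 (0.132). 12 of 28 such genes were higher and 2 lower, or 4 lower without organoid 2.

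In the list of fetal and regenerating epithelium 16 of 31 were higher, without the leading markers, and 4 lower, or 1 without crypt 2. Ly6a, or Sca-1, gave 2.06 and 2.33 CPM in crypts and 2.62 and 2.6 in organoids, and Anxa1 2.64 and 9.56 and 10.6 and 8.41, neither called, except Anxa1 without crypt 2 (1.79, adjusted p = 0.00881). Clu, of revival stem cells, gave 2.81 and 9.99 and 27.6 and 8.24 (adjusted p = 0.381). Among those that rose were Igf2bp3, an RNA-binding protein of fetal tissue (0.495 and 0.603 to 8.0 and 9.19, 3.88 ± 0.37) and Ccn2, a target of the Yap pathway. Ccn2 had 2 crypt counts and 4.8 and 4.51 CPM in organoids, a ratio of 55.4 (95% counting interval 15 to 462). The lower ones were the alarmin Il33 (2.81 and 3.1 to 1.38 and 0.607), Basp1 (2.39 and 2.67 to 0.582 and 0.347), Ly6d (0.908 and 1.12 to 0.218 and 0.173) and the integrin chain Itga5 (3.88 and 6.63 to 1.82 and 3.04). Without crypt 2, Il33 (adjusted p = 0.0975), Ly6d (0.112) and Itga5 (0.268) were not called. Nor were Il33 and Ly6d without crypt 1 (0.0574 and 0.0566) or organoid 2 (0.113 and 0.111), or Ly6d and Itga5 without organoid 1 (0.101 and 0.175). Among 47 junction, keratin and matrix genes tested, 10 were higher (21.3%), or 6 without crypt 2, and 7 lower (14.9%), or 4 without organoid 1, beside 19.4% and 22.7% of all genes tested. Laminin chains moved apart: Lamb1 fell from 39.3 and 38.5 to 1.31 and 2.43 (-4.46 ± 0.24) and Lama5 from 62.7 and 92.8 to 16.8 and 18.6 (-2.20 ± 0.20), while Lamc1 rose from 31 and 35.7 to 95 and 96.8 (1.46 ± 0.12) and Lamb3 from 31.5 and 34.3 to 69.95 and 88.7 (1.20 ± 0.14). Lamb1 stood at 43.1 and 61.8 CPM in Eed KO organoids. Lama5 was not called with the WT crypt of run 440 added (-1.79, adjusted p = 0.0903) or in place of these crypts (-0.33, 0.226).

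Of 17 genes that answer to glucocorticoids or make steroids, 7 were higher (41.2%) and 8 lower (47.1%), beside 19.4% and 22.7% of all genes tested. Among the lower ones, Fkbp5 went from 60.7 and 41.1 to 22.5 and 33.1 CPM (-0.94 ± 0.24, adjusted p = 0.0236), Sgk1 from 14.9 and 14.6 to 5.24 and 4.42 (-1.67 ± 0.23), and Zbtb16 from 3.88 and 1.81 to no count (at least 24.2-fold lower). Fkbp5 was not called without crypt 1 (adjusted p = 0.0689) or organoid 1 (0.0887). The metal-binding Mt1 rose from 54.4 and 33.8 to 1145 and 678 (4.31 ± 0.45, adjusted p = 0.00467) and Mt2 from 12.5 and 8.62 to 1140.4 and 571 (6.28 ± 0.58), and Slc30a10, a manganese exporter, from 0.330 and 0.258 to 47.5 and 78.7 (7.62 ± 0.40). The zinc importer Slc39a4 fell from 67.8 and 89.7 to 38.7 and 57.9 (-0.77 ± 0.22), though not without crypt 2 (adjusted p = 0.131) or organoid 1 (0.0664).

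Polycomb genes encode the complexes that the deletions of this series target. Neither deleted gene was called between WT crypts and WT organoids. Eed gave 49.3 and 56.7 CPM in crypts and 71 and 63.1 in organoids (0.28 ± 0.13, adjusted p = 0.115) and Ezh2 84.2 and 89.5 and 102 and 107 (0.21 ± 0.11, adjusted p = 0.149). With the WT crypt of run 440 in place of these crypts both were higher in organoids (Eed 0.55, adjusted p = 0.0217, and Ezh2 0.66, 0.00445), and Ezh2 also with all 8 libraries of run 385 and additive terms (0.54, 0.0215). Suz12, the third core subunit, was higher (146 and 152 to 222 and 235, 0.55 ± 0.11) and Ezh1, the enzyme of resting cells, lower (52.9 and 58.2 to 37.7 and 43.4, -0.52 ± 0.13), though Ezh1 was not called without crypt 2 (adjusted p = 0.0826) or organoid 1 (0.0562), or with the WT crypt of run 440 added (0.0781) or in place (0.194), nor Suz12 with it added (0.0515). Of 30 such genes 6 were higher (20%) and 7 lower (23.3%), or 3 lower without crypt 2, which is near the 19.4% and 22.7% of all genes tested. Epop, an accessory subunit, rose from 0.743 and 0.431 to 9.02 and 15.2 (4.26 ± 0.41).

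A set of genes separated these groups but did not follow culture over the whole series. The group means of 276 called genes differed at least 8-fold after adding 1 CPM. Of the 276, 98 differed as much and in the same direction both in WT organoids against the WT crypt of run 440 and in Eed KO organoids against these crypts. Another 15 lay within 2-fold of the WT organoid mean in the WT crypt of run 440. In Eed KO organoids the same 15 lay within 2-fold of the mean of these crypts. The 15 were picked after their values were seen and are given without a test. Hmga1b had no count in the crypts, 44 and 52.2 CPM in WT organoids, 0.0819 and 0.0854 in Eed KO organoids and 45 in the WT crypt of run 440. Gm10260 gave 0.0825 and 0.345, then 179 and 199.7, then 0.492 and 0.427 and 233 in the same order. Gm8730 ran the other way, with 102 and 92.4 CPM in crypts, 0.145 and 0.260 in WT organoids, 139.7 and 117 in Eed KO organoids and 0.273 in the WT crypt of run 440, and so did Rps3a3 (208 and 108, 0.509 and 0.347, 293 and 232 and 0.383). Rnase1, a secreted ribonuclease, gave 78.7 and 72.3, 1.31 and 0.954, 79.5 and 45.2 and 0.820. Libraries labelled C57BL/6-FVB mixed stood at both levels, and the FVB label belonged to the WT organoids alone. The Eed KO crypt of run 440 stood at 0.396 CPM of Hmga1b and 291 of Gm8730, nearer the crypts of run 385 than the WT crypt of its own run. The sex pattern ran with Hmga1b and Gm8730 in most groups and not in all: Xist stood at 2.48 and 2.58 CPM in these crypts, 1265 and 1384 in WT organoids, 0.983 and 1.54 in Eed KO organoids and 1446 in the WT crypt of run 440. The Ezh2 KO crypts of run 440 had Xist at 955, 673 and 429 CPM, Hmga1b at 58.4, 62.9 and 60.4 and Gm8730 at 0.704, 0.928 and 0.614. In the Eed KO crypts of run 385, Xist was at 1915 and 3592 CPM, with Hmga1b at 0.488 and 0 and Gm8730 at 98.4 and 101, and in that of run 440 Xist was at 325. These 3 libraries thus expressed Xist and held both other genes near the levels of the crypts of run 385. Rps3a3 was not called without organoid 1 (adjusted p = 0.11) or organoid 2 (0.0825). Several of the 15 are near copies of other genes, whose reads can move between copies. These genes are counted among the calls above. Uncultured libraries stood at both levels, as did cultured ones, and strain and animal cannot be told apart for them.

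**Figure D5:**
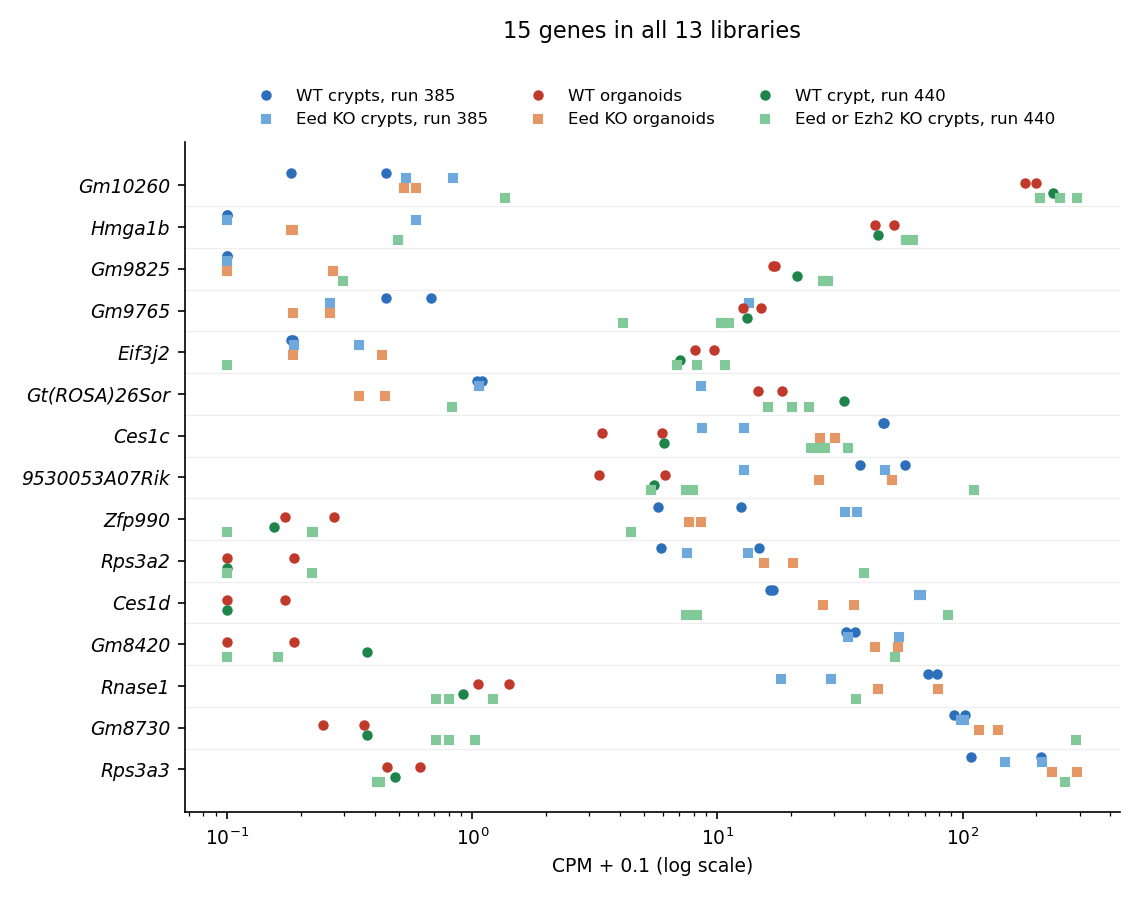
CPM after adding 0.1 (x axis, log scale) of 15 genes in all 13 libraries, with 1 point a library coloured by its group. WT organoids (red) lie with the WT crypt of run 440 (dark green), and Eed KO organoids (orange) with the WT crypts of run 385 (blue), so that the 15 genes do not separate organoids from crypts.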

How the data were processed

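The authors deposited raw counts per gene for RNA-seq libraries of mouse crypts and organoids (TRIzol RNA, TruSeq Stranded mRNA). Per the submitters' processing notes, TopHat2 2.0.12, Bowtie 0.12.9, HTSeq and DESeq2 were used with GRCm38. Use of strand in counting is not given by any source used here. Symbols, positions and biotypes came from the deposited tables, read for runs 385 and 440.

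The whole run 385 table was fitted in edgeR 4.0.16 (glmQLFit, glmQLFTest, TMM scaling, minimum count 10 and minimum total 15) over the 2 WT crypt and 2 WT organoid libraries. Adjusted p-values cover all genes tested, at a threshold of 0.05. Of 20858 genes in the comparison, 8540 were too low to test. Fold changes against a group with no count used a floor of 3 counts over the group, and 1 to 3 counts gave a ratio with a 95% interval, which covers counting error only. The procedure was tested on simulated data. 18 alternatives were run, DESeq2 1.42.0 among them. The members, lists and rules were chosen with earlier results of these data known. Named genes are the 20 protein-coding genes with the largest rise and fall at 10 CPM or more, the first 4 of each of 49 lists and its 4 largest changes each way, all calls where a list has 5 or fewer, and the 10 most abundant genes of each group. Others are named as chosen after their values were seen. The ribosomal list's name pattern was corrected after the data were seen. Promoters came from RefSeq, GRCm38.p6. Counts of near-identical genes (alpha-defensins, Gsta, Cyp2c, Ces1, Rps3a) are uncertain one by one. Replicate numbers are shared by the groups, but the labels do not say that they pair the samples. Some genes of the lists are not reported here by name.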

Additional observations from a re-analysis of the deposited data

How the results depend on the processing

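Depth limits genes near the filter: 8540 of 20858 genes were not tested. The division of 2385 higher and 2795 lower genes (46% of calls higher) depended on scaling. It was 35.3% higher with upper-quartile scaling (1809 and 3320), which moved the median log2 fold change from -0.02 to -0.12, and 52.9% with no composition scaling (2811 and 2503). Testing against a fold of 2 left 520 higher and 1071 lower genes, and adding the WT crypt of run 440 left 1106 and 1796. DESeq2 gave 2060 and 2377. Leaving out 1 library gave 1359 to 2083 higher and 1795 to 2538 lower, the lone library being assumed to vary like the other group. The fit with the replicate block gave 2323 higher and 2780 lower. Same-numbered libraries share only a number, the correlation of their deviations being 0.032, and with fewer than 3 pairs no pairing can be read from them.

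Among 237 genes named in the text, those called in the comparison or in an alternative turned sign in 3 of the 18 alternatives. Signs of genes called in neither are not counted here. With the WT crypt of run 440 in place of these crypts, the log2 fold change was -0.73 for Anxa1, -0.65 for Cdx1, -0.34 for Gm10260, -1.16 for Ly6a, 0.44 for Mki67, 0.50 for Top2a, -4.29 for Pla2g2a, 0.43 for Reg3g, -4.37 for Retnlb, 0.44 for Rnase1, -0.39 for Rps3a1 and 0.20 for Vdr. With that crypt added it was -2.78 for Pla2g2a and -2.81 for Retnlb. With all 8 libraries of run 385 and additive terms for culture and genotype it was 0.12 for Axin2, 0.68 for Cck, 0.70 for Gip, 0.13 for Isg15, 0.62 for Lrat, 0.50 for Olfm4, -0.51 for Pla2g2a and 0.61 for Vdr. With the WT crypt of run 440 in place, 25 named genes were no longer called, with no turn of sign: Atf4, Axin2, Ccne2, Cyp2b10, Dclk1, Egln3, Ezh1, Fut2, Fzd7, Gata5, Gclc, Hmga1b, Ifi30, Lama5, Lrat, Mptx1, Mt2, Npc1, Pcna, Pou2f3, Ppard, Rbp2, Rora, Slc16a3 and Srebf1. With it added, 33 were not, among them Apoa4, Cyp3a11, H2-Q1 and Suz12. The additive terms ended 54 calls, among them Ang4, Chga, Clca1, Dpp4, Tff3, Cdkn1a, Nos2, Sst, Gcg, Nrn1, Naaladl1, Car4, Rps2 and Rps4l. DESeq2 ended 3 (Il33, Itga5 and Ly6d), and no filter on low counts 16, Sis, Fabp1 and Cyp1a1 among them. Under the replicate block Cyp1a1 was not called (adjusted p = 0.106) and Asns, Col3a1, Fabp6, Hk2, Lct and Lgr5 were. The causes were not tested.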

Other observations

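Genes that handle retinoids, the vitamin A derivatives that enterocytes take up and activate, were higher in 10 and lower in 5 of 18 cases. These shares, 55.6% and 27.8%, stand beside 19.4% and 22.7% of all genes tested. Aldh1a1, which makes retinoic acid, rose from 32.3 and 28.3 CPM in crypts to 936 and 525 in organoids (4.53 ± 0.38, adjusted p = 0.00128 by edgeR). Aldh1a2, its counterpart in stroma and immune cells, gave 1.65 and 6.03 CPM against no count (at least 32-fold lower, adjusted p = 0.014). Rbp2, the retinol binder of enterocytes, rose from 51.3 and 20.5 to 658 and 361 CPM, but was not called without crypt 2 (adjusted p = 0.061), organoid 1 (0.236) or organoid 2 (0.129). Lrat, which stores retinol as an ester, fell from 28.3 and 26.5 to 12 and 9.54 (-1.40 ± 0.18). Of 20 clock genes, 5 were higher (25%) and 4 lower (20%), near the 19.4% and 22.7% of all genes tested. Arntl (18.6 and 26.9, then 17 and 22.7) and Nr1d1 (47.4 and 32.4, then 38.5 and 31), which oscillate in opposite phases, were not called. Rora fell from 9.0 and 11.6 to 0.509 and 1.65 (-3.35 ± 0.45). No source used here gives the hour of harvest.

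Cytokine receptor and interleukin genes fell in 11 (40.7%) and rose in 4 (14.8%) of 27 cases, beside 22.7% and 19.4% of all genes tested. The epithelial cytokine gene Il18 rose from 5.78 and 6.03 to 18.5 and 13.2 CPM (1.37 ± 0.24, adjusted p = 0.00163 by edgeR). Il22ra1, the receptor of epithelial defence, was not called (35.7 and 30.4, then 30.5 and 22.9), except as lower without organoid 1 (adjusted p = 0.0252). In amino acid metabolism, Prodh, which breaks down proline, fell from 54.7 and 52 to 15.4 and 18.2 CPM (-1.73 ± 0.14). Cps1, the entry enzyme of the urea cycle, was not called (3904 and 3351, then 2588 and 3232). Vdr, the vitamin D receptor, fell from 679.9 and 547 to 395 and 435 CPM (-0.63 ± 0.14). The imprinted gene Phlda2 rose from 0.743 and 0.603 to 6.11 and 7.54 (3.25 ± 0.38) and Ppp1r9a fell from 55.4 and 72.5 to 3.71 and 4.94 (-3.95 ± 0.20). Among 5 Hox genes tested, Hoxa3 was higher (2.64 and 3.27 to 7.93 and 7.02 CPM, 1.28 ± 0.30), and 21 of 36 Hox genes in the table had no organoid count.

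Ribosomal protein genes were higher in 29 and lower in 5 of 75 cases, with a median log2 fold change of 0.28. The number higher was 6 without crypt 2, 10 without organoid 1 and 15 without organoid 2, and it was 14 with upper-quartile scaling and 45 with no composition scaling. The 5 lower genes were far from the rest of the list. Rpl35a fell from 109 and 99.4 to 22.5 and 23.4 CPM (-2.24 ± 0.12) and Rps2 from 26.2 and 30.8 to 3.64 and 4.51 (-2.87 ± 0.20). Rps4l fell from 23 and 15.8 to 0.0727 and 0.434 (-6.35 ± 0.48). It stood at 23.4 and 14.3 CPM in Eed KO organoids and 6.72 in the WT crypt of run 440. With all 8 libraries of run 385 and additive terms for culture and genotype, Rpl35a (edgeR adjusted p = 0.059), Rps2 (0.121) and Rps4l (0.106) were not called. The other 2, Rps3a2 and Rps3a3, are near copies of Rps3a1. Rps3a1 rose from 180.4 and 253 to 485 and 469.7 (1.08 ± 0.16), while Rps3a3 went from 208 and 108 to 0.509 and 0.347 and was not called without organoid 1 (adjusted p = 0.11) or organoid 2 (0.0825). Reads of ribosomal genes can move between a gene and its processed copies, and whether they did was not tested.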
